A study of Homo sapiens with 6 samples.

Results

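The chemokines that attract neutrophils, together with CCL20, CXCL16 and CCL2, were examined in cultured human bladder cancer cells of the T24 line. The 9 genes are those of the count table whose symbols are CXCL1, CXCL2, CXCL3, CXCL5, CXCL6, CXCL8, CXCL16, CCL20 and CCL2, out of 56303 genes in the table. Wild-type T24 cells grown in RPMI medium with 10% serum received a control siRNA (siNC) or an siRNA against the F-box gene FBXL6 (siFBXL6), and RNA was taken 48 h later, with 3 samples in each group. The study describes 2 siRNAs against FBXL6, numbered 1 and 2, while the treatment labels are numbered 1 to 3 in both groups, and these numbers were read as sample numbers. Whether they name the siRNA instead is not given in the sources used here. The comparison was made to learn which transcripts differ when FBXL6 is targeted. The libraries labelled siNC held 58646515, 60967902 and 56814946 counts, and those labelled siFBXL6 held 60968158, 60898556 and 60754015. The labels do not say whether the 3 samples of a group came from separate cultures, so each p-value measures the spread between these samples, which may be technical.

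Chemokines are small secreted proteins that guide leukocytes along a concentration gradient through G protein-coupled receptors. CXCL1, CXCL2, CXCL3, CXCL5, CXCL6 and CXCL8 carry a short glutamate-leucine-arginine motif ahead of their first cysteines, bind CXCR2 (CXCL6 and CXCL8 also bind CXCR1), and attract neutrophils. Epithelial cells make them after signals such as interleukin-1, interleukin-17 and tumor necrosis factor, largely through NF-κB and AP-1, and their short-lived mRNAs are subject to rapid decay. CCL20 attracts CCR6-bearing dendritic cells and lymphocytes, CCL2 attracts monocytes through CCR2, and CXCL16 is a membrane-bound ligand of CXCR6 that proteases can shed.

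The targeted gene itself was not set apart between the groups. FBXL6 stood at 6.19, 6.7 and 6.93 CPM (counts relative to the library total after TMM normalization) in the libraries labelled siNC and at 6.58, 5.7 and 5.81 CPM in those labelled siFBXL6. The highest value of the siFBXL6 label lay above the lowest of the siNC label, so the ranges overlapped. Its log2 fold change was -0.13 with a 95% interval from -0.31 to 0.05 (edgeR quasi-likelihood test, Benjamini-Hochberg adjusted p = 0.247). SLC52A2 lies across 31.7% of its exon bases on the opposite strand, and whether the counting used the strand is not given in the sources used here. Because the data do not show the lowering that the label names, every direction below is stated between libraries by their labels. ACTB, which encodes β-actin, was at 1168 ± 24.5 CPM under siNC and 1168 ± 25.8 CPM under siFBXL6 (SD, n = 3), with a log2 fold change of 0.00.

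Of the 9 chemokines, 6 were higher in the libraries labelled siFBXL6, and none was lower. They were CXCL2, CCL20, CXCL1, CXCL8, CXCL5 and CXCL16, with fold changes of 3.24, 2.68, 1.97, 1.85, 1.79 and 1.22. CXCL6, CXCL3 and CCL2 were not called. All 9 passed the filter on low counts and were tested among 21298 genes in edgeR (quasi-likelihood), with p adjusted by the Benjamini-Hochberg method and called under 0.05. Changes were widespread in this comparison, since 40.2% of all genes tested were called, 20.5% higher and 19.8% lower. CXCL2 and CCL20 were called and at least 2-fold higher, as were 1.77% of all genes tested. The ranges of the 2 labels lay fully apart for 7 chemokines, and for 48.2% of all genes tested. Their median log2 fold change was 0.84, and that of all genes tested was -0.01, with 5% of genes below -0.58 and 5% above 0.64. The 9 chemokines and the gene lists below were chosen with earlier results of these data known. Their shares and medians beside those of all genes are therefore descriptions and not independent support.

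**Figure D1:**
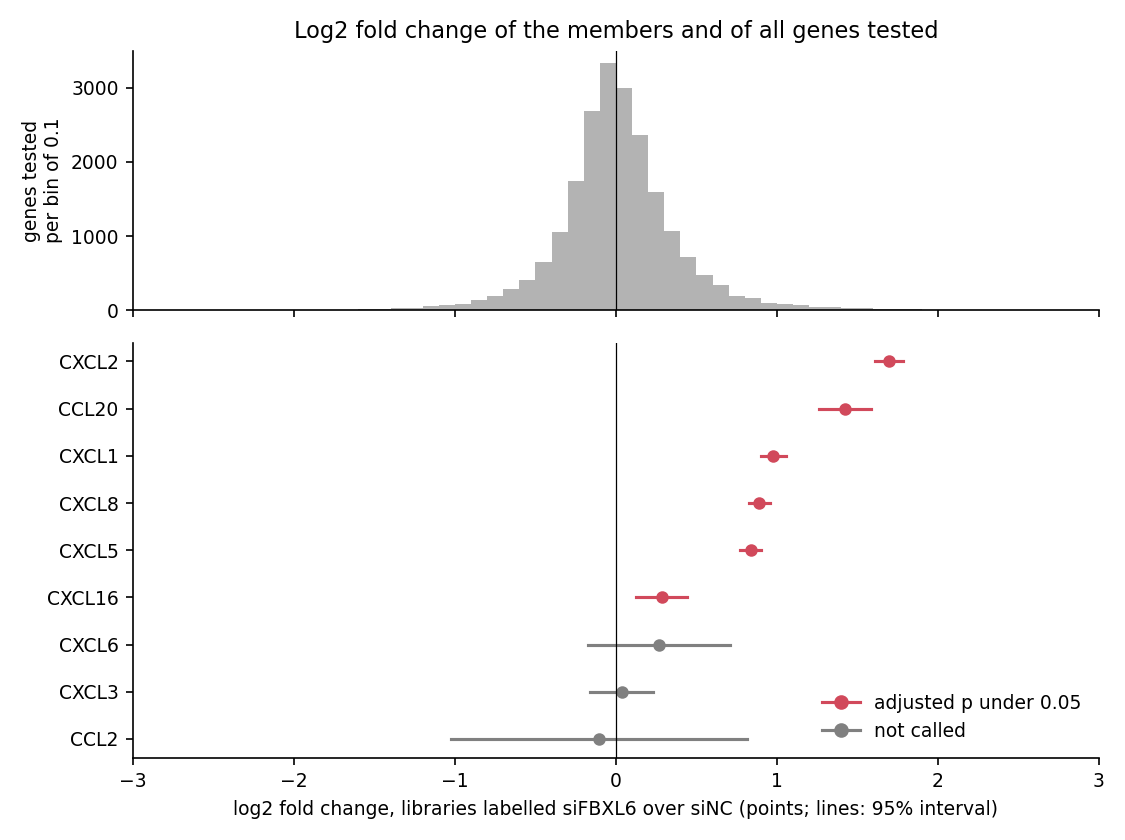
Log2 fold changes of the 9 chemokines (lower panel, points with 95% intervals) below the distribution of log2 fold changes of the 21298 genes tested (upper panel, genes per bin of 0.1, values beyond ±3 placed in the end bins). CXCL2 at 1.70 and CCL20 at 1.42 lie far to the right of most genes, and the intervals of CXCL6, CXCL3 and CCL2 include 0.

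The regulatory sequence next to the start of each gene was taken from the RefSeq promoter table on GRCh38.p14, which held 7 of the 9 genes. CXCL16 and CCL2 had no entry. In each window of 300 bases, from 250 before to 50 after the start, both strands were searched for the kappa B motif, the AP-1 motif TGANTCA and the C/EBP motif TTGCNNAA, and the gene's own strand for TATAAA. The kappa B motif was found upstream of CXCL1, CXCL2, CXCL3, CXCL5, CXCL6 and CCL20, while 5.72% of the 27305 promoters in the table hold it, and 6.64% of the 11779 that belong to genes tested. In all of these but CCL20 it read on both strands, as a pair of matches that overlap and are offset by 1 base. CXCL8 held an AP-1 match from -137 to -131 and a TATAAA match from -31 to -26, motifs present in 7.76% and 7.71% of all promoters and in 5.27% and 4.18% of those of genes tested. CCL20 held TATAAA from -29 to -24, and CXCL2 held a C/EBP match from -188 to -181, a motif in 10.6% of all promoters and 7.32% of those of genes tested. A match of letters is a description and not evidence of binding.

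The 200 bases before the start are shown for CXCL2 and CXCL3, near-copies that differed in this comparison, for CXCL8, whose window held other motifs, and for CCL20, the member on another chromosome with a high fold change. Each is written 5′ to 3′ on the gene's strand, with the matches in capitals. The coordinates on GRCh38.p14 are chr4:74099196-74099395 for CXCL2 and chr4:74038690-74038889 for CXCL3, both on the minus strand, and chr4:73740369-73740568 for CXCL8 and chr2:227813642-227813841 for CCL20, both on the plus strand. These starts are those of RefSeq. The count table begins CXCL2, CXCL3 and CXCL8 further upstream, so the windows of these 3 genes lie partly inside the gene intervals of the table, and the kappa B matches of CXCL2 and CXCL3 and the TATAAA match of CXCL8 do so as well.
CXCL2: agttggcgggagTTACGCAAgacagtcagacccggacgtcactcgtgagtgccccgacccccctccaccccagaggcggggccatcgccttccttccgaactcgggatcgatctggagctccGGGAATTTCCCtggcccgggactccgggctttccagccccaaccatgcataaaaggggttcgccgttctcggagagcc
CXCL3: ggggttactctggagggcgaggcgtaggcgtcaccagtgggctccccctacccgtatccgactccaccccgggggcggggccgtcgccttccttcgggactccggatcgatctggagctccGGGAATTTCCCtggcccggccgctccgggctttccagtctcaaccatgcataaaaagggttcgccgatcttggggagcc
CXCL8: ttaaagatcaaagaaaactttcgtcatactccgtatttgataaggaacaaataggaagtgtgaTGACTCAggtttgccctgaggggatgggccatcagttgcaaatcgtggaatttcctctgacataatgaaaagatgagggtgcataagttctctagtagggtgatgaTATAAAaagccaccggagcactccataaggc
CCL20: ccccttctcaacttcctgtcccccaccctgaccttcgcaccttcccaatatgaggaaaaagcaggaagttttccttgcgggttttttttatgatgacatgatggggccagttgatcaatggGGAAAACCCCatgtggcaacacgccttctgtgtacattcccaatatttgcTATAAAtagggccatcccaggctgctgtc

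The capitals mark the C/EBP and kappa B matches of CXCL2, the kappa B matches of CXCL3, the AP-1 and TATAAA matches of CXCL8, and the kappa B and TATAAA matches of CCL20. CXCL2 and CXCL3 share an unbroken run of 37 bases that includes the kappa B matches, which lie from -78 to -68 in CXCL2 and from -79 to -69 in CXCL3. CXCL1 and CXCL2 share a run of 42 bases, and CXCL5 and CXCL6 one of 45 bases. The kappa B letters of the called CXCL1, CXCL2 and CXCL5 were the same as those of the uncalled CXCL3 and CXCL6, whereas CCL20 had other letters and CXCL8 no match to the pattern searched. The full kappa B pattern is not listed here. The CXCL8 window holds ggaatttcc, which also lies within the CXCL2 and CXCL3 matches. The lack of a match thus depends on the exact pattern and does not show that CXCL8 lacks a kappa B site.

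The neutrophil-attracting ligands are described first. CXCL8, the interleukin-8 gene, was at 99.7, 97.8 and 103 CPM in the libraries labelled siNC and at 187, 184 and 186 CPM in those labelled siFBXL6. All 3 siFBXL6 values were far above all 3 siNC values, and the libraries of each group lay close together. Its log2 fold change was 0.89 (SE 0.0312, 95% interval 0.83 to 0.95, edgeR adjusted p = 7.6e-22). CXCL1, once named for growth-stimulating activity in melanoma cells, was at 50.2, 55.5 and 56.6 CPM against 109, 104 and 107 CPM. The siNC library with the lowest value was replicate 1, and again no values of the groups overlapped. CXCL1 had a log2 fold change of 0.98 (SE 0.0371, 95% interval 0.90 to 1.05, edgeR adjusted p = 7.2e-21), just under 2-fold.

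CXCL2, a close paralog of CXCL1, had the highest fold change of the 9 genes. It was at 17.2, 17.7 and 17.0 CPM in the libraries labelled siNC and at 54.5, 56.0 and 57.7 CPM in those labelled siFBXL6. Within each group the libraries differed by less than 4 CPM, while the groups lay apart by over 36 CPM. The log2 fold change was 1.70 (SE 0.0429, 95% interval 1.61 to 1.78, edgeR adjusted p = 6.51e-26), and CXCL2 had the 15th smallest p of all genes tested. CXCL3, the third of these near-copies, was at 5.3, 4.95 and 5.96 CPM against 6.1, 5.4 and 5.09 CPM. Its values ran through one another, with the highest siNC value above 2 of the 3 siFBXL6 values. The log2 fold change was 0.04 (95% interval -0.16 to 0.23, edgeR adjusted p = 0.813), an interval that leaves out any change as large as that of CXCL1 or CXCL2.

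Within each library the level of CXCL2 per kilobase of exon was 4.8, 5.29 and 4.22 times that of CXCL3 under the siNC label and 13.2, 15.3 and 16.8 times under the siFBXL6 label. This ratio needs no scaling between libraries, and the groups did not overlap (exact two-sided permutation test, p = 0.1, the smallest that 3 samples against 3 can give). The separation restates the fold changes of the 2 genes given above and is not a further test of them. Reads can be shared between the 2 genes. Of all stretches of 50 bases in the exons of CXCL2, 12.6% also occur in transcripts of other genes in GENCODE release 44, most often CXCL3, and of the stretches of 100 bases 6.07% do. For CXCL3 the shares were 5.94% and 3.73%. How the counting treated reads that fit both genes is not given in the sources used here, so part of either count is uncertain.

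CXCL5, which epithelial cells release during inflammation, was at 66.3, 68.7 and 70.0 CPM in the libraries labelled siNC and at 123, 120.4 and 123 CPM in those labelled siFBXL6. All siFBXL6 values exceeded all siNC values. Its log2 fold change was 0.84 (SE 0.0318, 95% interval 0.77 to 0.90, edgeR adjusted p = 7.55e-21). CXCL6, its nearest relative in the family, was scarce, at 0.889, 0.971 and 0.697 CPM against 1.03, 1.06 and 0.996 CPM. The groups did not overlap for CXCL6 either, but they were separated by less than the range of the siNC libraries. With counts between 40 and 64 per library, its log2 fold change of 0.27 had a 95% interval from -0.18 to 0.71 and did not pass the test (edgeR adjusted p = 0.361). The log2 fold change of CXCL5 is outside that interval. Of the stretches of 50 bases in CXCL5, 17.3% also occur in transcripts of other annotated genes, and none of the 50-base stretches of CXCL8, CCL20 or CCL2 is shared.

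CCL20, the ligand of CCR6, was at 4.55, 4.78 and 4.44 CPM in the libraries labelled siNC and at 13.1, 11.6 and 12.3 CPM in those labelled siFBXL6. The lowest siFBXL6 value was above the highest siNC value by more than 6 CPM. This was a log2 fold change of 1.42 (SE 0.0788, 95% interval 1.26 to 1.58, edgeR adjusted p = 1.89e-16). CXCL16, the membrane-bound ligand, was at 6.63, 7.2 and 6.34 CPM against 8.24, 8.21 and 8.13 CPM. Its siFBXL6 values were almost equal to one another and above every siNC value. The log2 fold change was 0.28 (SE 0.079, 95% interval 0.12 to 0.44, edgeR adjusted p = 0.00399), the smallest of those called. MED11 lies on the opposite strand across 3.04% of the exon bases of CXCL16.

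CCL2, the monocyte attractant, was near the floor of the measurement. Its counts were 22, 8 and 10 under the siNC label against 14, 14 and 10 under the siFBXL6 label, or 0.376, 0.13 and 0.174 CPM against 0.232, 0.232 and 0.166 CPM. One siNC library held the highest value and the groups overlapped. The log2 fold change of -0.10 had a 95% interval from -1.02 to 0.82 (edgeR adjusted p = 0.886), which corresponds to fold changes from 0.492 to 1.76.

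**Figure D2:**
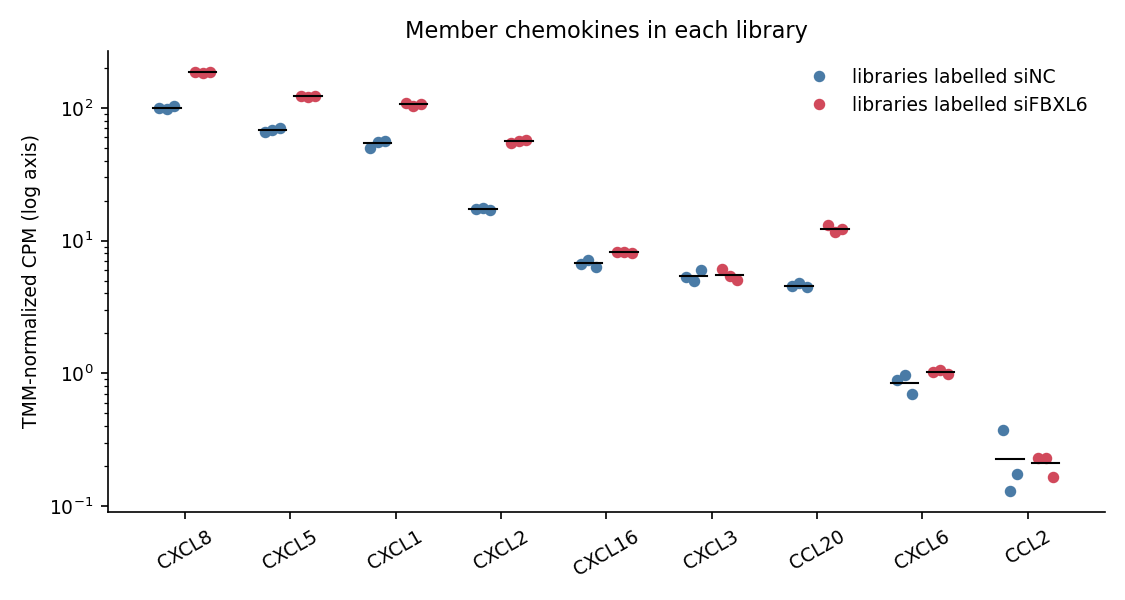
TMM-normalized CPM of each chemokine gene in each of the 6 libraries on a log axis (points: libraries labelled siNC in blue and siFBXL6 in red, black lines: group means). CXCL8 reaches 184 to 187 CPM under the siFBXL6 label against 97.8 to 103 CPM under siNC, while the points of CXCL3 and CCL2 overlap.

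Levels between genes were compared as CPM per kilobase of the exon length in the table. In the libraries labelled siNC the order was CXCL8 (44.1 ± 1.28, SD, n = 3), CXCL1 (41.8 ± 2.65), CXCL5 (26.9 ± 0.756), CXCL2 (11.5 ± 0.255), CCL20 (3.42 ± 0.127), CXCL3 (2.44 ± 0.229), CXCL16 (2.41 ± 0.157), CXCL6 (0.39 ± 0.0646) and CCL2 (0.114 ± 0.0662). CXCL8 and CXCL1 overlapped between libraries, as did CXCL3 and CXCL16, and every other pair of neighbours in that order did not. Under the siFBXL6 label CXCL1 (82.3 ± 2.18) and CXCL8 (81.8 ± 0.779) still overlapped, followed by CXCL5 (48.1 ± 0.576), CXCL2 (37.4 ± 1.06) and CCL20 (9.17 ± 0.549). CXCL8 and CXCL1 were each more abundant per kilobase than 96.5% of the genes tested over all 6 libraries. The exon length counts every annotated exon, and for CXCL3 and CCL2 the merged exons form 1 block that spans the whole gene, which lowers their level per kilobase.

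Added over the 46 chemokine ligand genes that were in the table, the level was 131, 135 and 138 CPM per kilobase in the libraries labelled siNC and 269.5, 262 and 268 in those labelled siFBXL6. The siFBXL6 sum was 1.98 times the siNC sum, with no overlap (exact two-sided permutation test, p = 0.1, the smallest possible here). CXCL2 made up 8.57% ± 0.338 of this sum under siNC and 14.0% ± 0.467 under siFBXL6 (SD, n = 3 each), and CCL20 2.54% ± 0.13 and 3.44% ± 0.159. CXCL8 went from 32.8% ± 0.88 to 30.7% ± 0.186 and CXCL5 from 20.0% ± 0.0477 to 18.1% ± 0.0606. The share of CXCL1 was 31.0% ± 1.15 and 30.9% ± 0.379, within the spread of the libraries. Ligands other than the 9 members together held 1.2% ± 0.101 and 0.689% ± 0.0471.

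**Figure D3:**
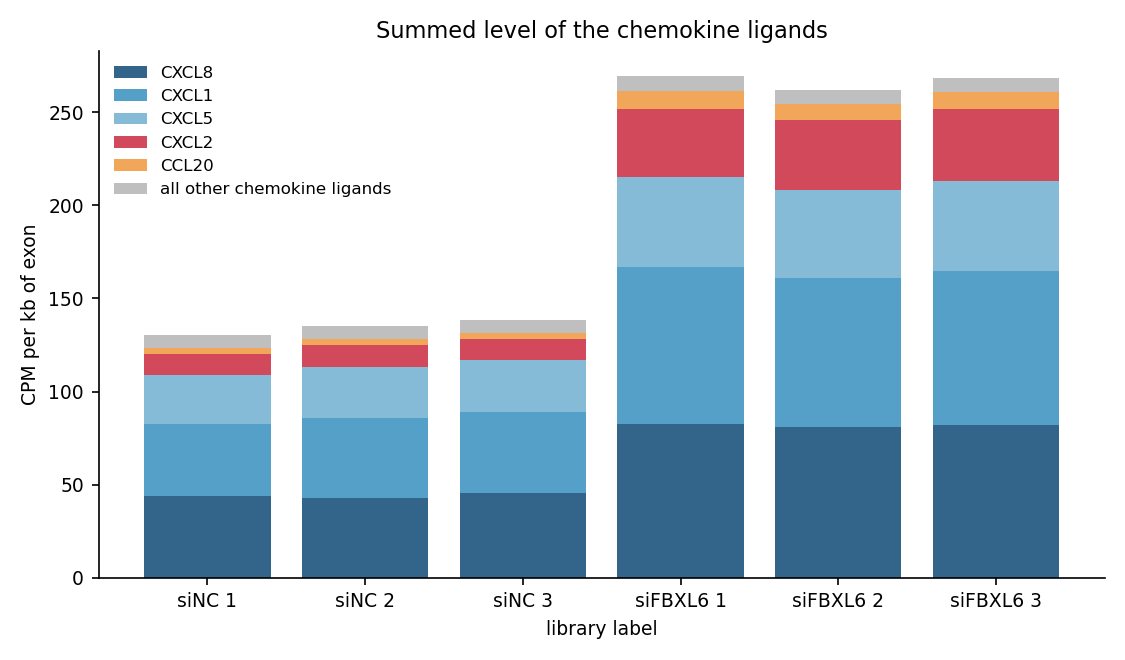
Summed level of 46 chemokine ligand genes in each library, in CPM per kilobase of exon, stacked by gene. The bars reach 131 to 138 under the siNC label and 262 to 269.5 under the siFBXL6 label, and the CXCL2 part widens from 8.57% to 14.0% of the sum on average.

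Of the 9 genes, 6 lie in one cluster on chromosome 4. From the start of CXCL8 (chr4:73740506-73743716) to the end of CXCL2 (chr4:74097035-74099293) it spans 358.8 kb of GRCh38 and holds 16 genes of the table. CXCL8, CXCL6 (chr4:73836497-73849064) and CXCL1 (chr4:73869393-73871242) are on the plus strand, and CXCL5 (chr4:73995642-73998779), CXCL3 (chr4:74036589-74038807) and CXCL2 on the minus strand. Genes that rose and genes that were not called are interspersed along it. CXCL6 lies between CXCL8 and CXCL1, and CXCL3 lies between CXCL5 and CXCL2. Of the 10 other genes in the cluster, 9 had at most 4 counts in any library, among them the platelet chemokine genes PF4, PF4V1 and PPBP, and 3 had no count at all. The one other gene tested, the pseudogene HNRNPA1P55, had at most 16 counts and a log2 fold change of -0.23 (95% interval -1.33 to 0.87).

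Outside the cluster, the next tested gene beyond CXCL8 was RASSF6, a Ras-association domain gene, which fell by 0.20 on the log2 scale (edgeR adjusted p = 0.00035, no overlap of the groups). Beyond CXCL2 it was MTHFD2L, a mitochondrial folate enzyme gene, which rose by 0.61 (edgeR adjusted p = 1.01e-07, all 3 siFBXL6 values higher). CCL20 (chr2:227813842-227817564, plus strand) lies between AGFG1, with a log2 fold change of 0.17 (edgeR adjusted p = 0.00201, no overlap), and PID1, at 0.22 (edgeR adjusted p = 0.246). CXCL16 (chr17:4733526-4739922, minus strand) lies between MED11 at -0.23 and ZMYND15 at 0.21, neither called. CCL2 (chr17:34255218-34257203, plus strand) lies between a clone-named gene at 0.07 and CCT6B at 0.00, neither called.

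**Figure D4:**
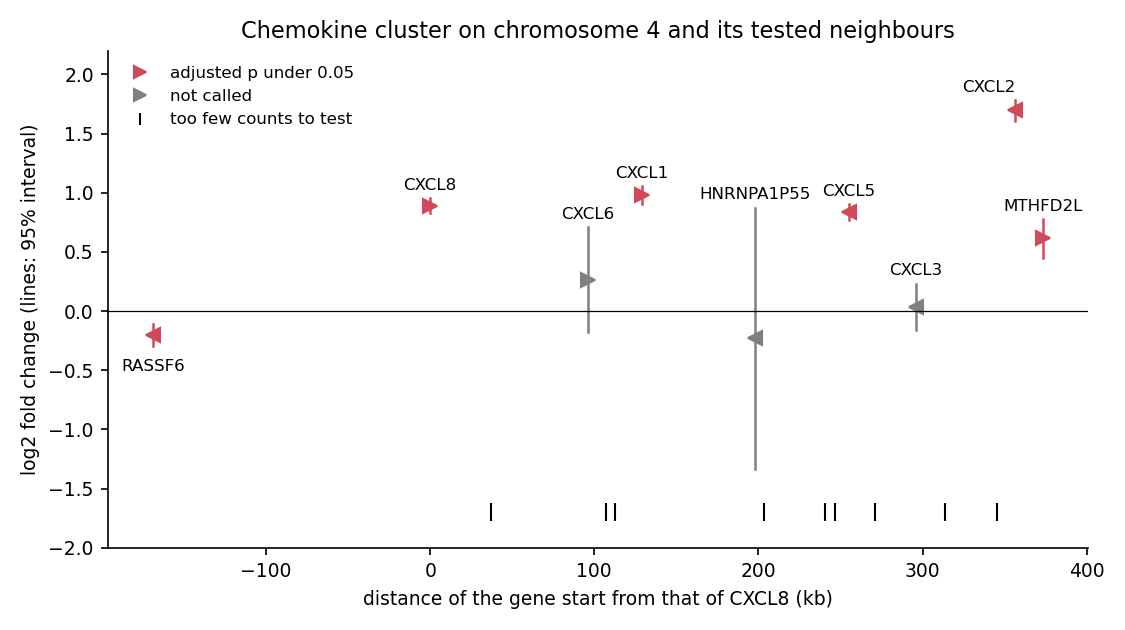
Log2 fold change of the tested genes of the chromosome 4 cluster and of its next tested neighbours against the distance of each gene start from that of CXCL8 in kb (triangles point along the gene's strand, lines are 95% intervals, ticks at the bottom mark genes with too few counts to test). CXCL8, CXCL1, CXCL5 and CXCL2 stand between 0.84 and 1.70, with CXCL6 at 0.27 and CXCL3 at 0.04 among them.

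The 3′ untranslated regions were searched for the AU-rich nonamer TTATTTATT, a sequence bound by decay factors such as tristetraprolin, in the canonical transcripts of GENCODE release 44. This search was chosen after the fold changes were seen. CXCL2 held 5 copies in 716 bases, CXCL1 held 3 in 772 bases, and CXCL8 and CXCL3 held 1 each in 1252 and 673 bases. CXCL5, CXCL6, CXCL16, CCL20 and CCL2 held none. Of 13765 tested genes with such a region, 9.34% held at least 1 copy, and of the 6260 with a region as long as those of the 9 genes, 5.91% did. The nonamer was thus present in 3 called genes and in CXCL3, which was not called, and absent from CCL20, CXCL5 and CXCL16, which were called. The shorter AU-rich pentamer ATTTA occurred in all 9 genes. In raw copies it was most frequent in CXCL5 (11 in 1995 bases), CXCL2 (10 in 716) and CXCL8 (9 in 1252), and least in CXCL16 and CCL2 (1 each). These copies are not scaled to length, and no share over all genes is given for the pentamer.

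The other chemokine ligands were mostly too scarce to test. Of the 13 other CXC, CX3C and XC ligands, 3 had enough counts to be tested and 1 was higher, where 20.5% of all genes tested were. That was CXCL11, an interferon-inducible ligand of CXCR3, at 0.821, 0.486 and 0.662 CPM in the libraries labelled siNC and 0.992, 1.16 and 1.59 CPM in those labelled siFBXL6. The groups did not overlap, although the libraries of each differed widely, and the log2 fold change was 0.93 (95% interval 0.44 to 1.41, edgeR adjusted p = 0.00187). CXCL10, a ligand of the same receptor, was at 0.32 with an interval from -0.40 to 1.04. The median of the 3 tested was 0.32, which is the CXCL10 value, and CXCL10 ranged from 0.05 to 0.50 with 1 library left out. None of the 24 other CC ligands in the table could be tested, and none had more than 15 counts in a library.

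Receptors for these ligands were scarce in the same cells. The receptors of the 9 chemokines are given here beyond the rule for named genes. CXCR1 was counted 2 times in 1 siNC library and not in the others, CCR2 2 times in 1 library of each label, and CCR6 6, 6 and 6 times against 0, 2 and 0 times. All 3 fell below the filter. CXCR6 had a log2 fold change of 0.87 that did not pass (edgeR adjusted p = 0.0984). CXCR2, the shared receptor of the neutrophil attractants, was counted 30, 18 and 38 times against 14, 16 and 10 times, with all siFBXL6 values lower. Its log2 fold change was -1.13 (95% interval -1.90 to -0.36, edgeR adjusted p = 0.0158), and this call was lost with DESeq2 (adjusted p = 0.0649), without siNC replicate 3 (log2 fold change -0.85, edgeR adjusted p = 0.136) and without siFBXL6 replicate 3 (-0.96, 0.0839). At a limit of 0.01 it was lost as well, and with counts divided by 2 CXCR2 fell below the filter.

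Of 23 chemokine receptor genes 10 were tested, 2 were higher and 2 lower (20.5% and 19.8% of all genes tested), and the median log2 fold change was 0.07. CCR10, the receptor of skin-homing and mucosal T cells, was at 5.28, 5.26 and 4.02 CPM against 11.6, 14.4 and 12.8 CPM. All siFBXL6 values were more than 6 CPM above the siNC values, a log2 fold change of 1.41 (SE 0.091, edgeR adjusted p = 9.42e-15). Genes on the opposite strand cover parts of its exons, CNTNAP1 14.5% and another gene 16.8%, so its count is uncertain. ACKR3, a scavenging receptor and the most abundant of the list, rose by 0.30 on the log2 scale (SE 0.0572, edgeR adjusted p = 5.73e-05, no overlap). ACKR2, which takes up inflammatory CC chemokines, was counted 12, 16 and 21 times against 9, 7 and 4 times, with a gene on the opposite strand across 12.8% of its exon bases. Its log2 fold change of -1.31 (95% interval -2.27 to -0.34, edgeR adjusted p = 0.0265) lost its call with DESeq2 (adjusted p = 0.114) and when siNC replicate 2 or 3 or siFBXL6 replicate 2 or 3 was left out (edgeR adjusted p from 0.0581 to 0.15), and without a filter on low counts (0.057). At a limit of 0.01 it was lost as well. The siFBXL6 counts of ACKR2 were all under 10, so it passed the filter through the siNC libraries alone. With 10 counts required in every library, or with counts divided by 2, it was not tested.

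Receptors upstream of chemokine induction were the next list, with 14 cytokine receptors and 6 Toll-like receptors. All 20 were tested, 11 were higher (20.5% of all genes tested were) and 3 lower (19.8%), and the median log2 fold change was 0.33 beside -0.01 for all genes tested. IL1R2, the decoy receptor that binds interleukin-1 without signaling, was at 0.393, 0.421 and 0.244 CPM in the libraries labelled siNC and 2.02, 1.52 and 1.31 CPM in those labelled siFBXL6. Each siFBXL6 value was above 1 CPM and each siNC value well below it, with a log2 fold change of 2.18 (SE 0.251, edgeR adjusted p = 8.47e-09). TNFRSF1B, the second receptor of tumor necrosis factor, was at 2.22, 1.72 and 1.95 CPM against 3.65, 4.39 and 4.43 CPM. Its groups did not overlap and its log2 fold change was 1.08 (SE 0.13, edgeR adjusted p = 1.96e-08). The lymphotoxin receptor LTBR, the most abundant of the list per kilobase, fell by 0.17 (SE 0.0311, edgeR adjusted p = 3.7e-05, no overlap). The other lower genes were TNFRSF1A, another receptor of tumor necrosis factor, at -0.25 (edgeR adjusted p = 0.000654), and TLR3 at -0.46 (edgeR adjusted p = 0.0184).

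Of 21 adaptors and kinases, all tested, 8 were higher and 5 lower (20.5% and 19.8% of all genes tested), with a median of 0.04 and none at 2-fold. IRAK1, a kinase of interleukin-1 and Toll-like receptor signaling, averaged 149.9 ± 0.813 CPM under siNC and 197 ± 1.62 CPM under siFBXL6 (SD, n = 3). It rose by 0.39 on the log2 scale (SE 0.0296, edgeR adjusted p = 5.68e-13). MAP3K7, which encodes the kinase TAK1, averaged 33.0 ± 0.907 CPM and 43.7 ± 1.1 CPM, a rise of 0.40 on the log2 scale (SE 0.0403, edgeR adjusted p = 3.91e-10). IRAK2, the most abundant of the list per kilobase, rose by 0.19 (SE 0.0296, edgeR adjusted p = 2.52e-06). For each of these 3 genes all siFBXL6 values lay above all siNC values.

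All 17 transcription factors of chemokine induction were tested, 11 were higher and 2 lower (20.5% and 19.8% of all genes tested), and the median was 0.22. The largest change of the list was a lower one, that of the AP-1 subunit JUNB at -0.57 (HOOK2 lies on the opposite strand across 14.2% of its exon bases, so its count is uncertain), and the stress-induced factor ATF3 was the other lower gene at -0.30. NFKBIZ, a nuclear cofactor of NF-κB, was at 61.3, 62.1 and 60.7 CPM against 84.1, 84.2 and 84.8 CPM. The libraries within a group were nearly equal, and the log2 fold change was 0.46 (SE 0.032, edgeR adjusted p = 7.84e-14). NFKB2, which encodes the precursor of the p52 subunit, also had a log2 fold change of 0.46 (SE 0.033, edgeR adjusted p = 1.94e-13), and FOSL1, an AP-1 subunit and the most abundant of the list per kilobase, one of 0.41 (SE 0.033, edgeR adjusted p = 3.38e-12). Both had no overlap between groups. None of the 17 reached 2-fold.

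Among 10 feedback inhibitors of the same pathways, 5 were higher and none lower (20.5% and 19.8% of all genes tested), with a median of 0.14. TNIP3, an NF-κB-induced partner of the ubiquitin-editing enzyme A20, was at 3.16, 2.46 and 2.75 CPM against 8.42, 8.44 and 9.28 CPM. Every siFBXL6 value was above every siNC value by over 5 CPM, and the log2 fold change was 1.64 (SE 0.0989, edgeR adjusted p = 1.68e-15). CYLD, a deubiquitinase that limits NF-κB signaling, rose by 0.66 (SE 0.0391, edgeR adjusted p = 1.18e-15, no overlap). TNIP1, the most abundant of the list per kilobase, was at -0.02 with an interval from -0.08 to 0.05.

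Of 17 regulators of chemokine mRNA decay, all tested, 3 were higher and 7 lower (20.5% and 19.8% of all genes tested), and the median log2 fold change was -0.06. HNRNPD, which encodes the AU-rich element binding protein AUF1, was at 1446, 1431 and 1464 CPM against 1148, 1155 and 1152 CPM. It was lower in all 3 siFBXL6 libraries and was the most abundant gene of the list per kilobase, with a log2 fold change of -0.33 (SE 0.026, edgeR adjusted p = 1.67e-12). ZC3H12C, a relative of the chemokine-degrading nuclease regnase-1, rose by 0.39 (SE 0.0464, edgeR adjusted p = 1.59e-08, no overlap). The regnase-1 gene itself, ZC3H12A, fell by 0.18 (edgeR adjusted p = 0.000902). ZFP36, the tristetraprolin gene, rose by 0.36 (edgeR adjusted p = 0.000808).

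Of 17 genes listed as proteases acting on chemokines, 14 were tested, 5 were higher and 3 lower (20.5% and 19.8% of all genes tested). The median was 0.13, and whether each protease cleaves a chemokine directly was not examined. The lower genes were MMP2, a gelatinase, at -0.71, MMP13, a collagenase, at -0.58, and ADAM10, which sheds CXCL16, at -0.28. ADAM17, of the same family as ADAM10, was called higher at 0.12 (edgeR adjusted p = 0.00634). IAH1 lies on the opposite strand across 24.1% of the exon bases of ADAM17. MMP1, the interstitial collagenase, was at 144, 150.4 and 157 CPM in the libraries labelled siNC and 359, 356 and 354 CPM in those labelled siFBXL6. No siFBXL6 value came near the siNC range, and the log2 fold change was 1.25 (SE 0.0315, edgeR adjusted p = 6.51e-26). PLAU, which encodes the plasminogen activator urokinase, rose by 0.80 (SE 0.0292, edgeR adjusted p = 2.09e-21), although C10orf55 lies on the opposite strand across 31.1% of its exon bases. MMP14, a membrane-bound metalloprotease and the most abundant of the list per kilobase, rose by 0.63 (SE 0.0275, edgeR adjusted p = 3.15e-19). Neither had overlapping groups.

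Of other cytokine genes only 4, picked by hand with earlier results of these data known, were read, which describes no wider group, and they had log2 fold changes of 1.57 for CSF2, 2.53 for CSF3, 1.47 for IL1B and 1.88 for IL23A (SE 0.0835, 0.0844, 0.0296 and 0.048, no overlap for any of the 4, as for 48.2% of all genes tested). CSF3 encodes the growth factor of neutrophils, and IL1B an inducer of the chemokines above.

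The likeness of all other tested genes to the chemokines was measured over the 6 libraries as the Pearson correlation of log2(CPM + 0.5) with the mean of the 9 genes, each scaled to mean 0 and SD 1. DENND1C, KMT5A, SPRR2A, OSBPL8 and PTRF came first, with r of 0.998, 0.998, 0.998, 0.997 and 0.997. SPRR2A, a gene of the cornified envelope, had a log2 fold change of 1.95, and the others were at 0.57 (DENND1C), 0.19 (KMT5A), 0.32 (OSBPL8) and 0.14 (PTRF). The 6 libraries fall into the 2 labelled groups, so such an r mostly reads the difference between them, and 1654 genes (7.77%) reached an r of at least 0.95.

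Marker genes were read in every library to check the labelled cell type. The counts of called markers stand beside 20.5% higher and 19.8% lower among all genes tested. All 10 epithelial markers were tested, 3 were higher and 5 lower, and their summed level was 4266, 4116 and 4245 CPM under siNC and 3866, 3832 and 3848 CPM under siFBXL6. KRT19 was the most abundant of them per kilobase, at 711 ± 13.9 and 641 ± 6.85 CPM (SD, n = 3 each). The urothelial list was weak, with sums from 84.5 to 98.7 CPM, 6 of 10 genes tested, none higher and 3 lower, among them UPK3B at -1.19. PPARG was its most abundant gene, at 66.5 and 63.5 CPM on average, and UPK1A, which encodes a uroplakin of the mature urothelial surface, had no count in any library.

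Markers of neutrophils and monocytes, the cells these chemokines call, were close to 0. Here too, 20.5% of all genes tested were higher and 19.8% lower. The 15 genes summed to 3.45, 3.9 and 3.43 CPM under siNC and 4.32, 4.65 and 4.31 CPM under siFBXL6, and 6 of them were tested, 2 higher (CSF1R at 0.90 and S100A12) and 1 lower (CXCR2). S100A12 was the most abundant per kilobase, with 7, 6 and 8 counts against 19, 18 and 21, and its call (edgeR adjusted p = 0.00926, log2 fold change 1.42, higher in all 3) was lost with DESeq2 (adjusted p = 0.0522). Its siNC counts were all under 10, so S100A12 passed the filter through the siFBXL6 libraries alone. With 10 counts required in every library, or with counts divided by 2, it was not tested. Of the 10 lymphocyte markers, summing to 1.88, 2.25 and 1.92 CPM against 1.44, 1.47 and 1.71 CPM, 3 were tested and 1 was lower. This was CD8A (log2 fold change -0.63, edgeR adjusted p = 0.0196, lower in all 3), which lost its call with DESeq2 (adjusted p = 0.0786), without siNC replicate 2 (edgeR adjusted p = 0.0775) and without siFBXL6 replicate 1 (0.0833). At a limit of 0.01 the CD8A call was lost as well. The 8 endothelial markers summed to 8.05, 8.09 and 8.62 CPM against 8.8, 8.48 and 9.31 CPM, with 7 tested, 1 higher (PECAM1 at 1.28) and EGFL7 the most abundant at 4.72 and 4.56 CPM on average. The 8 fibroblast markers, all tested, summed to 76.3, 81.1 and 78.0 CPM against 64.5, 64.2 and 61.5 CPM, with none higher, 2 lower and THY1 the most abundant at 36.8 and 25.9 CPM on average. The sums of the epithelial, urothelial, lymphocyte and fibroblast markers thus lay lower and that of the neutrophil and monocyte markers higher in the libraries labelled siFBXL6, and their part in the chemokine differences was not tested. The median log2 fold change of the 6 tested neutrophil and monocyte markers was nevertheless -0.24. All samples were labelled as the cultured T24 line, so these values were read as marker transcripts in that culture and not as numbers of other cells.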

How the data were processed

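T24 RNA libraries made with a strand-marking mRNA kit were sequenced by the authors, who deposited whole-number read counts per gene, not normalized, for 6 libraries on GRCh38. The submitters' processing notes name fastp 0.23.0, STAR, featureCounts and Subread 1.5.1, whereas the study's methods name Trimmomatic and HISAT2 for trimming and alignment, and which were used was not settled here. Between 72.4% and 73.8% of the counts from 1 to 10 in a library are even, and 2 is about 3 times as frequent as 1 (3340 against 1011 in siNC replicate 1). If both reads of a pair were counted, the printed counts exceed the number of fragments. The cause was not tested.

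Genes were filtered with filterByExpr (21298 of 56303 kept), scaled with TMM and tested with the quasi-likelihood test of edgeR 4.0.16 (limma 3.58.1, R 4.3.3), with the label as the only term and Benjamini-Hochberg adjustment over all genes tested. A self-test on simulated counts, with the dispersion taken from this fit, followed it. Sums and exact permutation tests used SciPy 1.17.1 and pandas 2.3.3, and figures Matplotlib 3.10.9. No 2 libraries within a group were identical. Their chi-square per degree of freedom ran from 2.76 to 5.80, where independent counts give 1 and fragments counted 2 times would give about 2, so how far they exceed sampling noise is uncertain. All libraries share 1 batch value in the labels. Depth was 56814946 to 60968158 counts, and the biological coefficient of variation was 3.57%.

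The 9 members and the gene lists were chosen with earlier results of these data known. Named genes were FBXL6, ACTB and the members, and in each list other than markers the called genes of at least 2-fold, to which the 2 genes with the smallest adjusted p were joined where fewer than 2 passed, plus the most abundant per kilobase. Marker lists gave only the most abundant gene. CSF1R, PECAM1, UPK3B, ZC3H12A, ZFP36 and ADAM17, and the lower upstream receptors, transcription factors and proteases, were named beyond this rule. Cluster genes and next tested neighbours, the 5 genes most like the members, 4 cytokines and the leading or absent markers were named as well. Neighbours were taken among genes placed on 1 chromosome. Alternatives were DESeq2 1.42.0, other scalings and filters, a replicate block, each library left out, a limit of 0.01 and, added after seeing the data, counts divided by 2. Promoters came from RefSeq (GRCh38.p14).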

Additional observations from a re-analysis of the deposited data

How the results depend on the processing

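The 6 called chemokines were called, and higher, under each of 15 alternatives, and CXCL3 and CXCL6 under none. CCL2 was not called under the 13 in which it was tested, and fell below the filter with 10 counts in every library and with halved counts. ACKR2 and S100A12 also fell below the filter under these alternatives, and CXCR2 with halved counts, so their calls were not tested there. CXCL2 and CCL20 reached 2-fold under all, and without siNC replicate 3 a 3rd gene did. CXCL2 ranged from 1.67 to 1.72 and CCL20 from 1.38 to 1.47 on the log2 scale. Of 861 values for 58 named genes, 823 kept direction and side of the threshold, 16 lost the call, 2 gained it and 20 reversed, none of the reversed being called. The alternatives were not read for CXCR6, TNFRSF1A, TLR3, JUNB, ATF3, ZC3H12A, ZFP36, MMP2, MMP13, ADAM10, ADAM17, CSF1R, PECAM1 and UPK3B. With 1 library left out, the reversed genes ranged from -0.391 to 0.465 (CCL2), -0.0411 to 0.11 (CXCL3), -0.0176 to 0.0175 (ACTB), -0.042 to 0.0189 (TNIP1), -0.0801 to 0.000607 (EGFL7), -0.0681 to 0.525 (ZMYND15), -0.0541 to 0.0446 (CCT6B), -1.01 to 0.112 (HNRNPA1P55) and -0.103 to 0.249 (the clone-named gene beside CCL2). ACTB, at 0.00, also went to -0.0192 with upper-quartile scaling, -0.0218 with library size alone, -0.000833 without a filter and -0.00361 with halved counts, an alternative chosen after the data were seen.

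Genes called at 2-fold or more fell from 622 to 376 when 10 counts were required in every library, where fewer genes were tested. Called chemokine receptors fell from 4 to 2 with DESeq2, with halved counts, and at 0.01, and ranged from 2 to 5 with 1 library left out (2 without siNC replicate 3). Called adaptors and kinases fell from 13 to 8 at 0.01. The cause of these shifts other than the filter and the stricter limit was not tested.

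Replicate numbers did not pair the samples, since same-numbered libraries had deviations correlated at -0.0849, -0.000212 and 0.0185. With the replicate number as a block, 8408 genes were called instead of 8569, 6 of the 9 chemokines among them. Scaling moved the median of all genes by less than 0.1 on the log2 scale, but the balance of calls depended on it, with 3930 genes higher and 4777 lower for library size alone and 3972 and 4718 for upper-quartile scaling, against 4360 and 4209. The intervals of CCL2 and CXCL6 span 0, and the part of depth in this was not tested.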
